A study of Oryza sativa with 2 samples.

Results

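ASA2, CYP71P1 and SNAT2 are 3 rice genes on the route from chorismate through tryptophan and serotonin towards melatonin, and their leaf transcripts were compared between LRK1 transgenic and control 9311 plants. They are 3 of the 17905 genes that the array's annotation ties to a probe set of their own. ASA2 was taken through 1 named probe set, and CYP71P1 (LOC4351945) and SNAT2 (LOC4344423) through the probe set with the highest mean signal that the annotation gives to each gene. The genes were picked with their difference between these same arrays in view, so all values below are a description and no test was made.

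The transgenic plants were rice of the indica variety 9311 carrying LRK1, which codes for a receptor-like kinase with leucine-rich repeats, and are titled LRK1 060615 in the labels. The control plants were 9311 without it. Leaves of 6-week-old plants, 10 per genotype, were taken without treatment after growth at 28 °C with 14 h of light and 10 h of dark, and RNA was measured on 1 Affymetrix rice array per genotype. The promoter of the transgene, the number of independent lines and whether the 10 plants were pooled are not given in any source used here, and the gene table holds no LRK1, so the transgene's own signal was not checked.

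Plants make tryptophan in the plastid from chorismate. Anthranilate synthase, an enzyme of alpha and beta subunits, takes the first step that is committed to tryptophan, and tryptophan inhibits it. Tryptophan decarboxylase turns tryptophan into tryptamine, and the cytochrome P450 CYP71P1 hydroxylates tryptamine to serotonin in the endoplasmic reticulum. Rice mutants without CYP71P1 form the orange spots called Sekiguchi lesions, and rice leaves are known to accumulate serotonin when attacked by pathogens and when they senesce. Serotonin N-acetyltransferase then makes N-acetylserotonin, which a methyltransferase turns into melatonin.

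All signals are log2 values from the MAS5 algorithm, 1 per probe set and array, and each log2 ratio sets the transgenic array over the control array. The median log2 signal of the 57258 probe sets other than controls was 5.56 on the transgenic array and 5.21 on the control array. Their joint median, 5.40, was used as a floor, and a call of higher or lower needed both of a gene's signals at this floor or above and a difference of at least 2-fold. Among the 13526 genes with both signals at the floor the median log2 ratio was 0.02 with an SD of 0.845 across genes, 11.1% were called lower and 6.82% were called higher. Spike-in control probe sets, 69 in number, had a median log2 ratio of 0.34, and 60 of them were higher on the transgenic array. In 7 of 8 housekeeping pairs the 3' signal over the 5' signal was lower on the transgenic array than on the control array. The gap ran from near equality, 16.24 against 16.45 for an actin pair and 0.782 against 0.831 for ubiquitin, to 1.997 against 15.97 for a GAPDH pair. The other pair, elongation factor 1-alpha, had 0.479 on the transgenic array and 0.131 on the control array. Actin and GAPDH each had more than 1 pair, so the 8 pairs do not stand for 8 separate genes. The part of these array differences in the results was not tested. No difference could be checked against replicates, since there was 1 array per genotype. The only spread at hand was between probe sets of a gene on these same arrays, which holds no variation between plants or between repeated arrays. In 1951 genes with at least 2 probe sets at the floor on both arrays, the log2 ratios of the 2 brightest probe sets differed with an SD of 0.676.

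The leaf label was checked first. The Rubisco activase gene RCA had a log2 signal of 16.23 on the transgenic array and 15.78 on the control array. The light-harvesting gene CAB2R had 16.24 on the transgenic array and 15.70 on the control array, and the Rubisco small subunit gene RBCS had 15.62 on the transgenic array and 15.15 on the control array. The probe set of RBCS1 was below the floor on both arrays. Of 9 measured seed and root genes 5 were below the floor on both arrays, among them the glutelin gene GLUA1 and the root silicon carrier gene LSI2. The other 4 were above it on both arrays, some of them far above. GLUA2 had a log2 signal of 11.60 on the transgenic array and 11.11 on the control array. The globulin gene GLB1 had 11.21 on the transgenic array and 11.25 on the control array. The silicon channel gene NIP2-1 had 10.50 on the transgenic array and 10.40 on the control array, and GLUB5 had 6.85 on the transgenic array and 6.41 on the control array. Seed and root genes were thus not all near background in these leaves. The 4 genes had log2 ratios from -0.05 for GLB1 to 0.48 for GLUA2, and no gene of either marker list passed the 2-fold rule.

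CYP71P1, the tryptamine 5-hydroxylase, had the largest difference of the 3 genes. Its log2 signal was 9.45 on the LRK1 transgenic array and 13.92 on the control array. On the linear scale these were signals of 700.3 and 15545, a log2 ratio of -4.47, or 22.2-fold lower in the transgenic leaves. Both signals were far above the floor, so the fold does not rest on a value near background. Only 19 of the 13526 genes had a lower ratio, and 13506 had a higher one. A second probe set of the gene had 3.83 on the transgenic array and 4.64 on the control array. It lay below the floor on both arrays and therefore gave no second measurement of the difference, although its log2 ratio, -0.81, was also negative. In bulk leaf RNA, fewer cells that express a gene and less RNA of it per cell cannot be told apart.

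ASA2 (LOC4332341), an alpha subunit of anthranilate synthase, had a log2 signal of 8.56 on the transgenic array and 10.53 on the control array. The log2 ratio was -1.97, or 3.92-fold lower in transgenic leaves, and 312 genes had a lower ratio. Its probe set carries the ending _s_at, which marks probes shared by several transcripts, so the fold may not be specific to ASA2. The other probe set of the gene, which is not of that kind, had 4.16 on the transgenic array and 4.80 on the control array. Both values were below the floor, and with this probe set alone the gene would not have been called, at a log2 ratio of -0.64.

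SNAT2, a serotonin N-acetyltransferase, differed the other way. Its log2 signal was 8.42 on the transgenic array and 6.84 on the control array, a log2 ratio of 1.58 or 2.99-fold higher in transgenic leaves. Of the 13526 genes 211 had a higher ratio. The gene has 1 probe set, so no second probe set bears on it, and the control signal lay 1.44 above the floor on the log2 scale. Of the 3 genes, CYP71P1 and ASA2, which act before serotonin, were lower and SNAT2, which acts on serotonin, was higher. They were picked with this difference in view, so the split is no finding about the pathway. ASA1 (0.16) and TDC2 (0.45), which also act before serotonin, were not called lower.

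**Figure D1:**
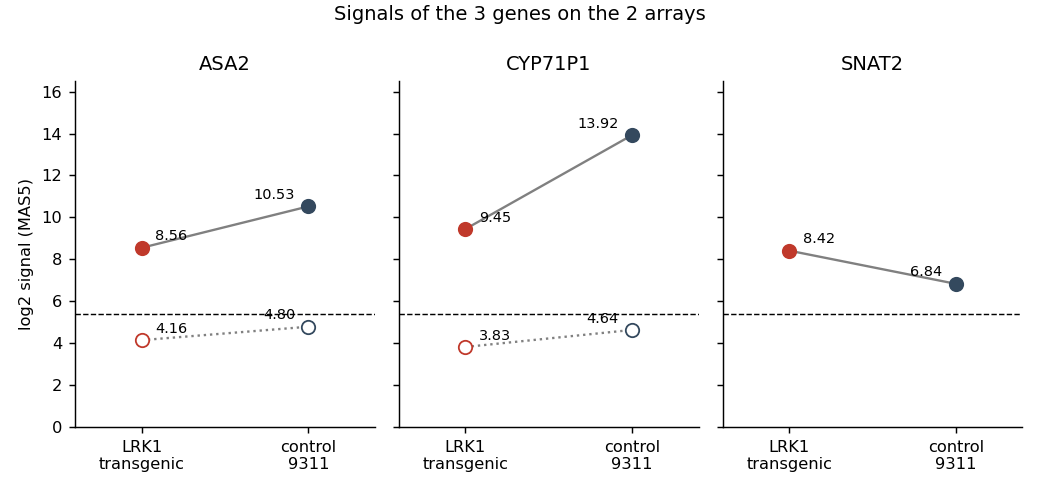
Log2 MAS5 signals of ASA2, CYP71P1 and SNAT2 on the LRK1 transgenic array (left, red) and the control 9311 array (right, dark), 1 array each and so without error bars. Filled points joined by solid lines are the probe sets that represent the genes, open points joined by dotted lines are the other probe sets of ASA2 and CYP71P1, and the dashed line is the floor of 5.40; the filled points lie above the floor on both arrays and the open points below it.

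The plot of ratios over all genes sets the 3 genes beside the rest. The genes in the low tail were more than those in the high tail, as 11.1% lower and 6.82% higher calls show, and CYP71P1 lay in the far part of that tail.

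**Figure D2:**
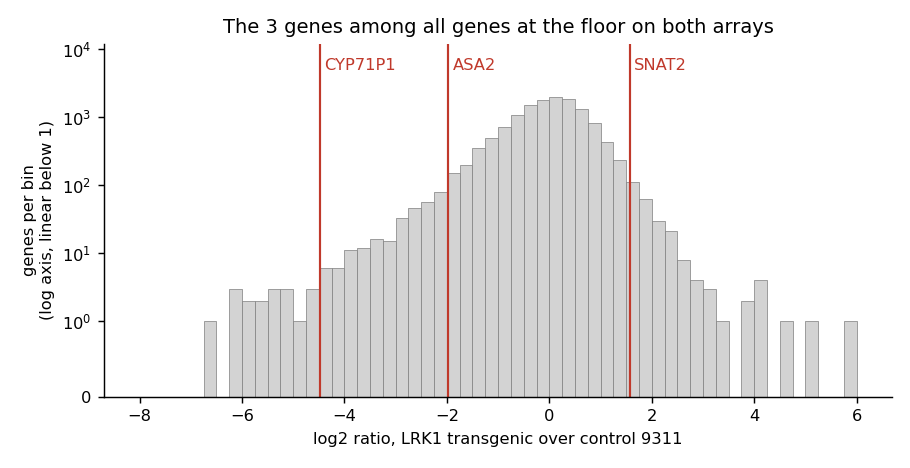
Histogram of log2 ratios, LRK1 transgenic over control 9311, of the 13526 genes that reached the floor on both arrays, in bins of 0.25, with the number of genes on a log axis that is linear below 1. Red lines mark CYP71P1 at -4.47, ASA2 at -1.97 and SNAT2 at 1.58.

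The neighbouring steps were read from 7 lists of pathway genes, 52 names in all. Only 22 of these names were found in the gene table, and 20 of the genes had a probe set. Both signals reached the floor for 15 genes, of which 4 were called lower and 2 higher, members included. Without the 3 members the lists held 12 such genes, with 2 lower and 1 higher and a median log2 ratio of -0.09. Against a background of 11.1% lower and 6.82% higher over all genes, these are too few genes to call anything particular to the lists. Tryptophan synthase, indole glycerol phosphate synthase, phosphoribosylanthranilate transferase and isomerase, TDC1, TDC3, ASMT2 and the melatonin hydroxylases were not found by name and were not analysed here.

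Anthranilate synthase was the best covered step. The alpha subunit gene ASA1 (LOC4334640) had a log2 signal of 8.64 on the transgenic array and 8.48 on the control array. This ratio of 0.16 was close to the median of all genes, while that of ASA2, which codes for the same kind of subunit, was -1.97. The sign of the ASA1 ratio turned when the arrays were centred on the median ratio of all probe sets (-0.07) or on the spike-in controls (-0.18). The beta subunit gene ASB2 (LOC4333918) had 9.45 on the transgenic array and 10.92 on the control array and was 2.77-fold lower. ASB1 (LOC4336076), the other beta subunit gene, had 11.95 on the transgenic array and 12.78 on the control array, and its ratio of -0.84 was under the 2-fold rule as deposited. Centred on the median ratio (-1.07) or on the spikes (-1.18), ASB1 was called lower. Under quantile normalization (-0.84), loess (-0.94) and log2(signal + 16) (-0.84) it was not. The alpha subunit gene ASA2 and the beta subunit gene ASB2 were thus called lower as deposited. The other gene of each subunit kind, ASA1 and ASB1, was not.

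Tryptophan decarboxylase, the step between tryptophan and CYP71P1, was measured through TDC2 (LOC4343080) only. TDC1 and TDC3 were not found by name, so the values describe TDC2 and not the whole step. Its log2 signal was 9.08 on the transgenic array and 8.64 on the control array. The ratio of 0.45 was under the 2-fold rule under every scaling alternative, where it ran from 0.11 to 0.53. The choice of probe set could not move it, since TDC2 has 1 probe set. TDC2 was thus not among the genes called lower, unlike CYP71P1, which acts on its product.

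Past serotonin, SNAT1 (LOC4339123), the other serotonin N-acetyltransferase gene, had a log2 signal of 11.87 on the transgenic array and 10.81 on the control array, on a probe set with the ending _x_at, whose probes can cross-hybridise. It was 2.10-fold higher, a call that was lost when the arrays were centred on the median ratio (0.84) or on the spikes (0.73). Its second probe set had 2.45 on the transgenic array, below the floor, and 5.86 on the control array, less than 2-fold above it, and gave no second measurement. SNAT2 kept its call under every scaling alternative, and the choice of probe set could not move it, since it has 1 probe set. With the floor raised to the 75th percentile, a log2 signal of 8.29, SNAT2 lost its call, because its control signal lay below that floor.

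The O-methyltransferase genes ASMT1 and ASMT3, of the last step to melatonin, were near or below the floor. ASMT1 (LOC4346795) had 4.14 on the transgenic array and was listed at 0 on the control array, both below the floor. ASMT3 (LOC4347993) had 5.92 on the transgenic array and 1.64 on the control array, and its transgenic signal was less than 2-fold above the floor, so no fold is given for either.

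Upstream, the shikimate pathway feeds chorismate to all aromatic amino acids. DAHPS1 (LOC4333014), a DAHP synthase gene of its first step, had 9.24 on the transgenic array and 10.30 on the control array and was 2.09-fold lower. DAHPS2 (LOC4343946) had 13.60 on the transgenic array and 14.46 on the control array on its brightest probe set, a ratio of -0.86. That probe set ends in _s_at, as does the one of ASA2. The other probe set, without this ending, had 14.0 on the transgenic array and 13.82 on the control array, a ratio of 0.18. The probe sets of DAHPS2 thus disagreed in sign. The brightest one passed the 2-fold rule under quantile normalization (-1.08), loess (-1.07), centring on the median ratio (-1.09) and spike centring (-1.20). The shikimate kinase genes SK1 (0.89), SK2 (0.12) and SK3 (-0.45) were under the 2-fold rule, and the sign of SK2 turned under both centrings (-0.11 and -0.22). MTR1 (LOC4344396), an arogenate dehydratase gene on the branch from chorismate to phenylalanine, had a ratio of -0.18.

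Tryptophan is also the source of auxin. FIB (LOC4325198), the tryptophan aminotransferase gene of that branch, had a log2 signal of 8.13 on both arrays and a ratio of 0.00, which turned to -0.23 when centred on the median ratio, to -0.34 when centred on the spikes and to 0.09 after quantile normalization. YUCCA1 (LOC9269185), a flavin monooxygenase gene of the next step, had 5.78 on the transgenic array and 4.29 on the control array, too near the floor for a call. Of the amine conjugation genes, THT2 (LOC4348504) had 2.95 on the transgenic array and 6.05 on the control array, and TBT2 (LOC4351010), of tryptamine benzoylation, had 2.99 on the transgenic array and 4.38 on the control array. Neither was called, since THT2 was less than 2-fold above the floor on the control array and TBT2 was below it on both.

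**Figure D3:**
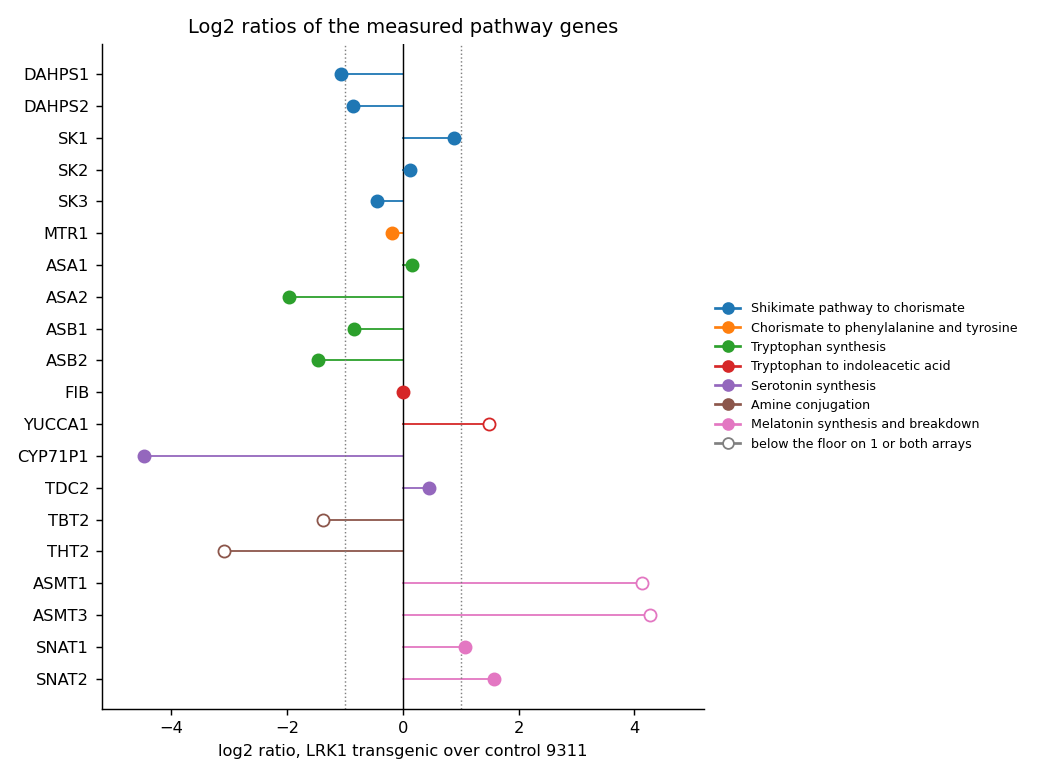
Log2 ratios, LRK1 transgenic over control 9311, of the 20 measured pathway genes, grouped by list from the shikimate pathway at the top to melatonin at the bottom, with dotted lines at the 2-fold rule. Filled points have both signals at or above the floor and open points do not; among filled points CYP71P1 (-4.47) and ASA2 (-1.97) are the lowest and SNAT2 (1.58) is the highest.

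CYP71P1 was also set beside other cytochrome P450 genes, a comparison chosen after its value was seen. Of 28 such genes with a CYP name and a probe set, CYP71P1 left out, 18 had both signals at the floor, of which 7 (38.9%) were called lower and 2 higher, against 11.1% lower and 6.82% higher over all genes. The median log2 ratio of these 18 was -0.38, and 3 of them had a lower ratio than CYP71P1. Only genes with a CYP name were counted, and just 2458 of the 17905 measured genes had any name. The 38.9% is thus no share of all P450 genes. Within the CYP71 family the gene table named 2 measured genes besides CYP71P1, and both were called lower. These 2 have consecutive gene numbers and do not describe the family. CYP71Z7 (LOC4329726), of phytocassane synthesis, had 8.80 on the transgenic array and 14.39 on the control array. CYP71Z6 (LOC4329725) had 11.39 on the transgenic array and 13.01 on the control array, a ratio of -1.62.

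The named genes with the most similar pair of signals were found by their distance in the plane of both log2 signals, over 2 arrays and 1954 named genes. So small a number of arrays makes this a description of level and ratio only, and signals of different probe sets are not amounts of transcript that can be compared. The nearest to CYP71P1 was CPS2 (LOC9266189), a diterpene cyclase gene of phytoalexin synthesis, with 9.48 on the transgenic array and 14.20 on the control array, at a distance of 0.281. CYP71Z7 followed at 0.801, the P450 gene CYP701A8 (LOC4341343) at 1.17, the potassium transporter gene HAK17 (LOC4347211) at 1.21 and CAD (LOC4328552), of cinnamyl alcohol dehydrogenase, at 1.44. The ratios of these genes ran from -5.59 for CYP71Z7 to -2.53 for CAD, so not all were close to that of CYP71P1. The nearest distance, 0.281, was larger than those of ASA2 (0.0472) and SNAT2 (0.168). With only 19 of 13526 genes at a lower ratio than CYP71P1, few genes lie in its part of the plane.

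Around ASA2 the nearest genes were ENR (LOC4345286) at 0.0472, the sucrose synthase gene OsSUS4 (LOC4332788) at 0.123 and the metallothionein gene MT1B (LOC4332487) at 0.125. The sugar transporter gene OsSWEET2a (LOC4326868) and LTR1 (LOC4336407), also listed as MYB4, followed at 0.157 and 0.158. These 5 genes had ratios from -2.14 for OsSUS4 to -1.77 for LTR1. Around SNAT2 the nearest were the auxin response factor gene ARF12 (LOC4337363) at 0.168, the floral MADS-box gene MADS14 (LOC4334140) at 0.313, the MYB gene MYBAS1 (LOC4351184) at 0.360, the dehydrin gene RAB21 (LOC4350454) at 0.365 and the Aux/IAA repressor gene IAA2 (LOC4326775) at 0.385. Their ratios ran from 1.06 for RAB21 to 2.02 for MADS14. For both members, ratios near the member's own follow from choosing genes by these same signals.

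The genes next to the members were examined because genes of some rice pathways lie side by side. The gene order was that of the Nipponbare assembly ASM3414082v1, a japonica rice, and the 5 nearest measured genes on each side were taken, a rule chosen after the values of the members were seen. Around CYP71P1, 7 of the 10 flanking genes had both signals at the floor. Their log2 ratios ran from -0.52 to 1.62 with a median of 0.09, and 1 was called higher and 0 lower. Around ASA2, 9 flanking genes had both signals at the floor, with ratios from -0.59 to 1.68 and a median of 0.20, and again 1 was called higher and 0 lower. Around SNAT2, 8 flanking genes had both signals at the floor, with ratios from -1.56 to 1.55, of which 2 were called higher and 1 lower. With 11.1% lower and 6.82% higher calls over all genes, flanking genes this few do not stand apart from the background.

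**Figure D4:**
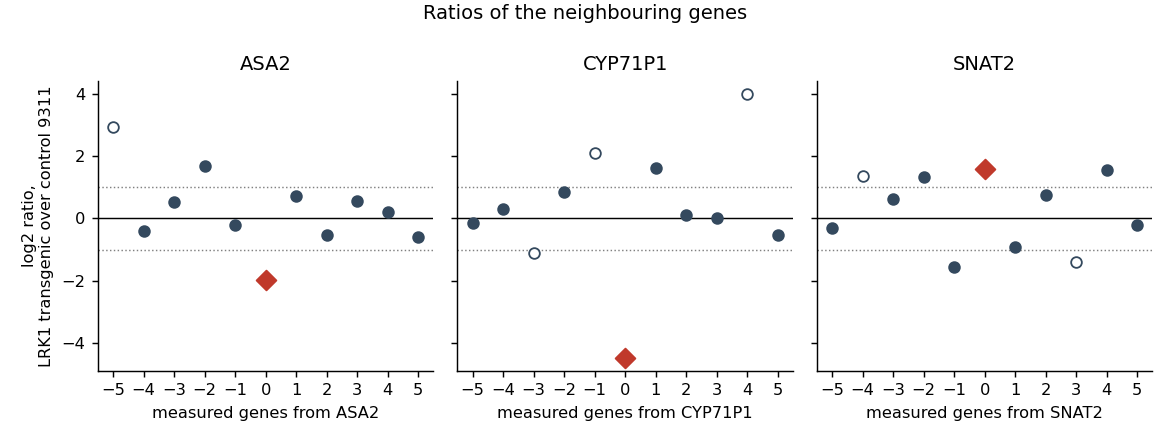
Log2 ratios, LRK1 transgenic over control 9311, of ASA2, CYP71P1 and SNAT2 (red diamonds) and of the 5 nearest measured genes on each side in gene order (dark points, open where a signal was below the floor), with dotted lines at the 2-fold rule. CYP71P1 at -4.47 and ASA2 at -1.97 lie below all of their flanking genes, and SNAT2 at 1.58 lies just above LOC4344427 at 1.55.

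The scaling between arrays moved the 3 ratios little beside their size. Under quantile normalization, loess, both centrings and log2(signal + 16) the ratio of CYP71P1 ran from -4.81 to -4.44, that of ASA2 from -2.31 to -1.92 and that of SNAT2 from 1.24 to 1.60, and each kept its call. For CYP71P1 and ASA2 the choice of probe set mattered more, while SNAT2 has 1 probe set and could not move with it. The median over the probe sets of each gene brought CYP71P1 to -2.64 and ASA2 to -1.30, in both cases by averaging with a probe set below the floor, and without probe sets ending in _s_at or _x_at ASA2 was represented by the probe set below the floor on both arrays, at a ratio of -0.64.

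**Figure D5:**
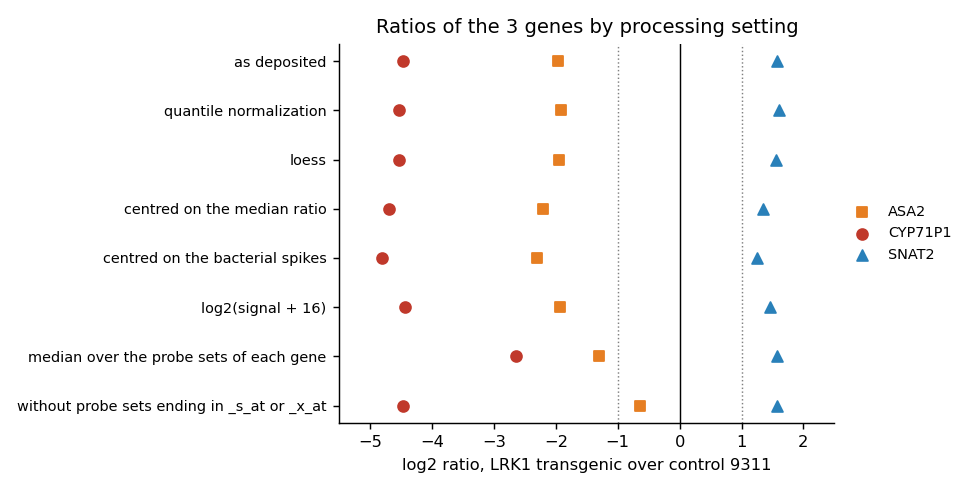
Log2 ratios, LRK1 transgenic over control 9311, of ASA2 (squares), CYP71P1 (circles) and SNAT2 (triangles) as deposited and under 7 alternative settings, with dotted lines at the 2-fold rule. CYP71P1 and SNAT2 stay outside the dotted lines in each row, and ASA2 lies inside them at -0.64 without probe sets ending in _s_at or _x_at. SNAT2 has 1 probe set, so the rows on the choice of probe set repeat its deposited value.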

How the data were processed

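The deposited values are log2 signals of 1 array per genotype, made by the authors with MAS5, as the submitters' processing notes name it. Its version, target level and lowest value are not given in the labels used here. Detection calls were not used here. The log2 scale was read from the values, and 230 probe sets on the transgenic array and 883 on the control array are listed at 0.

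Genes were named through the platform's annotation (22436 probe sets with 1 gene) and the gene table of ASM3414082v1, of which no coordinates are printed. A gene was represented by its probe set of highest mean log2 signal. Scaling alternatives, floors at the 25th and 75th percentile, and 1.5-fold and 4-fold rules were tried with Python 3.11.15, pandas 2.3.3 and statsmodels 0.14.6 (loess span 0.3). The code was run on simulated data with changed genes far above the floor. That run checked the code and says nothing of how reliable the calls here are. Named genes were the 3 members, every listed pathway gene with a probe set, and the 5 nearest genes of each member. Tissue marker genes are named from their lists, and CYP71Z6 was named after its value was seen. The members and lists were chosen with earlier results of these data known. One gene planned for the pathway lists was taken out of them and is not reported here. Promoter and protein sequences were not used here. With 1 array per genotype no p-value was computed, and precision is limited by the number of arrays.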

Additional observations from a re-analysis of the deposited data

How the results depend on the processing

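With 1 array per genotype, no replicate could be left out. No paired analysis was possible because each group has 1 array. The ratios of CYP71P1 and SNAT2 kept their direction and their side of the 2-fold rule under the 7 alternatives of scaling and probe set run for each, and that of ASA2 did so under 6, the other being -0.64 without probe sets ending in _s_at or _x_at, where the gene rests on a dimmer probe set. The choice of probe set could not move SNAT2, which has 1 probe set. Nor could CYP71P1 move without probe sets ending in _s_at or _x_at, since its brightest has neither ending. SNAT1 turned to -1.17 with the median over probe sets and to -3.41 without such probe sets, but both values rest on a probe set below the floor on the transgenic array and are no measure of its direction.

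The 4 lower and 2 higher pathway genes became 6 and 1 when centred on the median ratio or on the spikes, 1 (CYP71P1) and 0 under a 4-fold rule, 4 and 1 after raising the floor to the 75th percentile (where SNAT2 lost its call), 5 and 1 with the median over probe sets, and 3 and 1 without probe sets ending in _s_at or _x_at. Lower calls ranged from 1 to 6 over all alternatives and higher calls from 0 to 3. The share of genes called higher, 6.82% as deposited, was 3.86% when centred on the median ratio and 3.01% when centred on the spikes, where 18.8% were called lower. Of probe sets, 8.36% were higher and 9.95% lower as deposited. Centred on the median ratio, 4.92% were higher and 14.0% lower, and centred on the spikes, 3.93% higher and 16.4% lower. With the floor lowered to the 25th percentile, 15.6% of probe sets were higher and 12.4% lower, so the larger side changed. A 1.5-fold rule called 19.0% of genes higher and 21.2% lower (probe sets, 22.1% and 19.2%), and a 4-fold rule 0.562% and 2.22% (probe sets, 0.68% and 2.01%). Each centring takes a positive constant off every ratio, so it can only remove higher calls and add lower ones among genes that stay at the floor. The constant was 0.23 for the median ratio, taken over all probe sets other than controls, and 0.34 for the spikes. Both exceed 0.02, the median ratio of the genes at the floor on both arrays. Signals near the floor, as for ASMT1, ASMT3, the second probe set of SNAT1, YUCCA1, THT2 and TBT2, give no fold.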
